A study of Homo sapiens with 18 samples.

Results

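The 8 transcripts described are EEF1A1, EEF1B2, EEF1D, EEF1G, EEF2, TPT1, PABPC1 and NAP1L1. They were chosen by gene symbol because they belong to the terminal oligopyrimidine (TOP) class and encode no ribosomal protein. All 8 are among the 15358 genes listed for MCF10A and the 15257 listed for hTERT RPE-1, the lines studied, and all 8 passed the filter on low values in both lines. Polyadenylated RNA was sequenced from MCF10A cells, an immortalised and non-tumorigenic human breast epithelial line, and from hTERT RPE-1 cells, a human retinal pigment epithelial line immortalised with telomerase. In each line, the 3 treatments were a mimic of hsa-miR-28-5p, a mimic of hsa-miR-708-5p and siNT, a non-targeting siRNA that served as the control, all at 30 nM, and RNA was taken after 72 h. A mimic is a synthetic double-stranded copy of a microRNA, and the amount that reached the cells was not measured here. There were 3 biological replicates a group, BR7 to BR9 in MCF10A and BR1 to BR3 in hTERT RPE-1, which makes 18 libraries.

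A TOP transcript begins with a cytidine followed by an unbroken run of pyrimidines. The class comprises the mRNAs of the ribosomal proteins and of many translation factors, and it is translated in step with growth signals through the kinase mTOR and the RNA-binding protein LARP1. Elongation of the protein chain rests on the factors eEF1 and eEF2 beside the ribosome. EEF1A1 encodes eEF1A, which brings aminoacyl-tRNA to the ribosome as a complex with GTP. EEF1B2, EEF1D and EEF1G encode the subunits of eEF1B, which reloads eEF1A with GTP, and EEF2 encodes eEF2, which moves the ribosome along by a codon. PABPC1 encodes the cytoplasmic poly(A)-binding protein, NAP1L1 a histone chaperone and TPT1 the translationally controlled tumour protein.

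The starts of 6 transcripts are shown because the start defines the class, and EEF1D and PABPC1 had no entry. The 30-base windows come from the RefSeq promoter entries of GRCh38.p14, are written in the sense of transcription and hold 15 bases before and 15 from the annotated start. The capitals mark the first C at the start and the pyrimidines that follow it without a break.
EEF1A1 (chr6:73521018-73521047, minus strand): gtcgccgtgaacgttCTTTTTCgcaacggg
EEF1B2 (chr2:206159880-206159909, plus strand): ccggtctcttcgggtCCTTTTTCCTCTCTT
EEF1G (chr11:62573877-62573906, minus strand): tctcccgggcggcttaCTTTgcggcagcgc
EEF2 (chr19:3985449-3985478, minus strand): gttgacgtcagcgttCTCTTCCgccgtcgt
TPT1 (chr13:45341169-45341198, minus strand): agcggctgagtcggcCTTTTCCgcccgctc
NAP1L1 (chr12:76084671-76084700, minus strand): ggcgggctcttgggtCTTTTTTagcgccat

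Of the 6 transcripts with an entry, 5 had a C at the annotated start with at least 4 pyrimidines after it, and in EEF1G the C lay 1 base after the annotated start with 3 pyrimidines after it. EEF1B2 has 2 annotated starts, and the window shown is that of the downstream start, which is also the start of its MANE Select transcript. The window of the upstream start holds no such tract. The same pattern was found in 47 of 63 ribosomal protein genes with an entry (74.6%) and in 988 of 15843 protein-coding genes (6.24%). Since the 8 genes were chosen as TOP transcripts, this share describes the choice and is no finding.

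The mimics belong to a microRNA family with a common seed, the bases that pair with targets. The mature hsa-miR-708-5p of RefSeq (GRCh38.p14, chr11:79402077-79402099, minus strand) is shown with its seed, bases 2 to 8, in capitals.
hsa-miR-708-5p: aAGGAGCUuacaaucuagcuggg

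Matches to this seed were searched on the sense strand of the MANE Select transcripts of GENCODE 44, as GCTCCT, as the longer AGCTCCT and GCTCCTA, which hold it, and as both ends together. In the 3′ UTR, 1 of the 8 transcripts, NAP1L1, held a match of 7 bases, beside 3238 of 18780 genes (17.2%). Its 3′ UTR spans 11844 bases and holds 2 such matches, both in exon 15, shown with the 6 core bases in capitals.
NAP1L1, position 1416 of the 3′ UTR (core at chr12:76047008-76047013, minus strand): tttgtgtgGCTCCTatttttat
NAP1L1, position 11561 of the 3′ UTR (core at chr12:76036863-76036868, minus strand): tgtgtcgaGCTCCTgacctcag

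The other matches lay outside the 3′ UTRs. NAP1L1 held a 6-base match in its 5′ UTR. The coding sequences of EEF1A1 and EEF1G held 1 match of 6 bases each, that of EEF2 1 match of 7 bases, that of PABPC1 2 matches of 7 bases and 1 of 6, and that of EEF1D 1 match of 8 bases in exon 3. The EEF1D transcript searched has 647 codons. Its other isoforms were not searched, and the values do not separate isoforms. EEF1B2 and TPT1 held no match to these letters anywhere in the transcript. A match describes letters and not binding.

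The deposited values are estimated reads per gene, scaled by a size factor for each library, and those of the 8 transcripts are printed in units of 1000. They compare within a line, and the lines are compared by fold changes only. The step between low values gave a depth of 19.4 to 31.7 M reads on genes in MCF10A and 23.8 to 40.3 M in hTERT RPE-1. One library stood apart: 15.1% of the value of hsa-miR-28-5p BR1 in hTERT RPE-1 fell on ribosomal RNA genes, against 4.23 to 7.20% in the other 8 libraries of that line and 1.71 to 4.39% in MCF10A. All 8 MCF10A markers examined, keratins 5 and 14 among them, had values of at least 100 (in single units) in every MCF10A siNT library. Of 10 retinal pigment epithelium markers, 5 did so in hTERT RPE-1 and 4 in MCF10A. The 4 were BEST1, MITF, KRT8 and KRT18, which passed in both lines. By this count only OTX2, which is not listed for MCF10A, set the lines apart. Of the mature pigment epithelium genes, RPE65 is listed for MCF10A and not for hTERT RPE-1, and TYR is listed for neither line.

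With siNT, the 8 transcripts together took 3.24 to 3.41% of the summed value of an MCF10A library and 1.41 to 1.57% of an hTERT RPE-1 library. EEF1A1 alone took 1.75 to 1.87% and 0.839 to 0.919%. Per kilobase of the MANE Select transcript, the siNT value of EEF1A1 was 146 ± 5.21 (SD, n = 3) in MCF10A, and that of the next transcript, PABPC1, was 47.7 ± 1.77. EEF1G followed with 29.8 ± 1.87, TPT1 with 27.8 ± 1.01, EEF1B2 with 25.5 ± 2.69 and EEF2 with 21.7 ± 3.19 per kilobase, and the ranges of neighbours among these overlapped. EEF1D with 4.62 ± 0.234 and NAP1L1 with 1.71 ± 0.0319 per kilobase stood below, with no overlap.

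In hTERT RPE-1 the order per kilobase was EEF1A1 with 89.7 ± 1.53, EEF1G with 18.9 ± 0.202, EEF2 with 17.97 ± 0.690, PABPC1 with 14.6 ± 1.20, TPT1 with 12.3 ± 1.06, EEF1B2 with 8.67 ± 0.778, EEF1D with 1.89 ± 0.0821 and NAP1L1 with 1.73 ± 0.233 (SD, n = 3). The ranges of PABPC1 and TPT1 overlapped, as did those of EEF1D and NAP1L1, and the other neighbours did not. The lengths used run from 808 bases for EEF1B2 to 13159 for NAP1L1, and the tables do not separate isoforms, so a shorter dominant isoform would raise the value per kilobase.

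**Figure D1:**
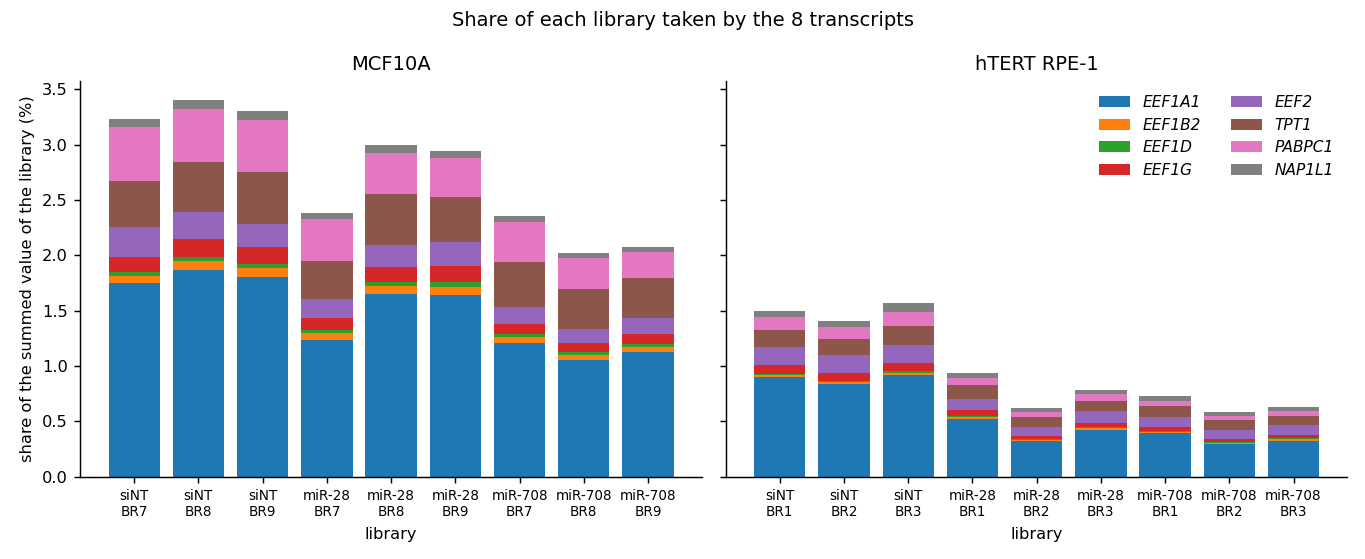
Share of the summed value of each library (y axis, %) taken by each of the 8 transcripts, stacked by colour, for the 9 libraries of each line (x axis). The siNT bars reach 3.24 to 3.41% in MCF10A and 1.41 to 1.57% in hTERT RPE-1, and every bar with a mimic is lower than every siNT bar of its line.

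With the hsa-miR-28-5p mimic the 8 transcripts together took 2.39 to 2.995% of an MCF10A library, and under hsa-miR-708-5p 2.02 to 2.35%. In hTERT RPE-1 the shares were 0.622 to 0.940% and 0.584 to 0.728%. The groups of each line did not overlap with siNT on this scale, which needs no size factor. With ribosomal RNA genes left out of the total, the share in the library with 15.1% ribosomal RNA was 1.11% in place of 0.940%, below the 1.52 to 1.67% of siNT. In a bulk measurement, less of a transcript in each cell and fewer cells that hold it cannot be told apart.

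The number of transcripts called lower against siNT, at a limma adjusted p under 0.05 with Benjamini-Hochberg adjustment over all genes tested, was 1 of 8 under hsa-miR-28-5p and 6 of 8 under hsa-miR-708-5p in MCF10A, and 8 of 8 with either mimic in hTERT RPE-1. Over all genes tested, 12.0% and 17.3% were called lower in the MCF10A comparisons and 23.5% and 31.2% in those of hTERT RPE-1, in the same order of mimics. The share of genes called higher was 10.7%, 15.5%, 23.3% and 30.9%, and none of the 8 transcripts was among them at the adjusted or at the unadjusted threshold of 0.05. Every library with the mimic lay below every siNT library for 5 of 8 transcripts under hsa-miR-28-5p in MCF10A, where 22.1% of all genes did so, and for all 8 in the other 3 comparisons, where 23.9%, 27.5% and 34.9% of all genes did so. The median log2 fold change of the 8 transcripts was -0.35, -0.85, -0.77 and -1.13, beside a median over all genes within 0.01 of 0 in each comparison. The comparisons of a line share their siNT libraries.

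These values rest on the deposited scaling, which sets the typical gene to no change. When each library was scaled to the same total instead, the median of all genes moved to 0.12 and 0.14 in MCF10A and to 0.09 and 0.32 in hTERT RPE-1, and that of the 8 transcripts was -0.23, -0.71, -0.69 and -0.81. The share of lower genes among all called genes went from 52.9 to 33.8%, from 52.7 to 32.4%, from 50.1 to 40.6% and from 50.3 to 28.1%. Of the 8 transcripts, 1, 5, 7 and 7 were then called lower.

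**Figure D2:**
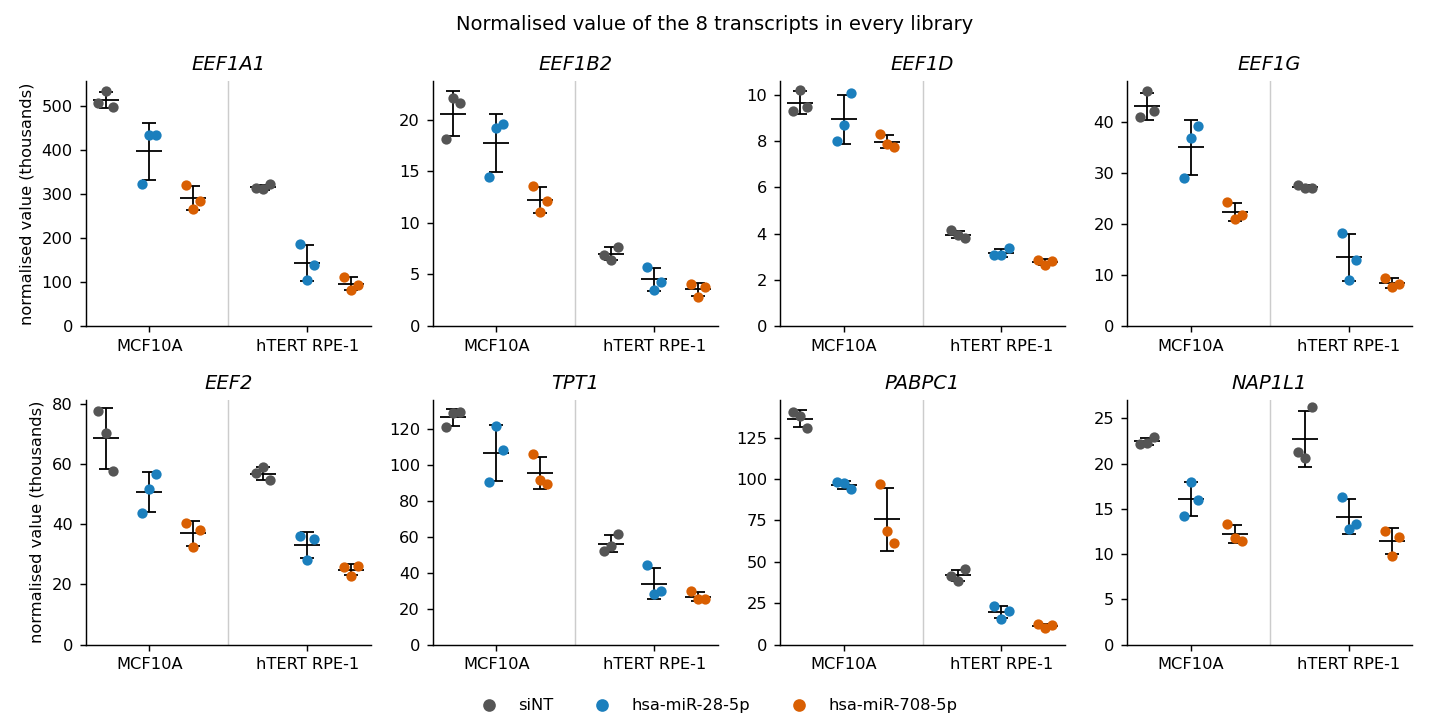
Normalised value in units of 1000 (y axes, from 0) of each of the 8 transcripts in the 18 libraries, by line (x axis) and treatment (colour). Points are libraries, in the order of their replicate numbers, and bars are the mean ± SD of 3. In hTERT RPE-1 all points with a mimic lie below all siNT points in each panel, and in MCF10A those of EEF1B2, EEF1D and TPT1 under hsa-miR-28-5p overlap siNT.

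EEF1A1 is described first, as the factor that carries aminoacyl-tRNA and the most abundant of the 8. In MCF10A its values were 507, 533 and 498 with siNT, 322, 434 and 434 under hsa-miR-28-5p and 319.2, 266 and 284 under hsa-miR-708-5p, in the order BR7, BR8 and BR9. Neither mimic group overlapped with siNT, and BR7 was the lowest library of its group under hsa-miR-28-5p and the highest under hsa-miR-708-5p. The log2 fold change was -0.38 ± 0.28 (SE) under hsa-miR-28-5p, with an adjusted p of 0.341, and -0.83 ± 0.28 under hsa-miR-708-5p, with an adjusted p of 0.0394. The second call was lost under 10 of the 17 alternative settings, and its adjusted p ranged from 0.00472 to 0.128 over the 17. Leaving out any single siNT library, or BR8 or BR9 of either mimic, ended it, and in these fits the log2 fold change was -0.77 to -0.85.

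In hTERT RPE-1, EEF1A1 had 312, 311 and 321 with siNT, 185, 104 and 138 under hsa-miR-28-5p and 112, 82.6 and 94.1 under hsa-miR-708-5p, in the order BR1, BR2 and BR3. The siNT libraries lay close together and far above the rest. The transcript fell, with log2 fold changes of -1.18 ± 0.23 and -1.72 ± 0.23, to 44.01% and 30.3% of siNT, with adjusted p of 0.00175 and 8.16e-05. The highest value under hsa-miR-28-5p was that of BR1, the library rich in ribosomal RNA, and without it the log2 fold change was -1.39. Any part of the ribosomal RNA in this was not tested.

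The eEF1B subunits come next. EEF1B2, the catalytic subunit eEF1Bα, had 18.1, 22.1 and 21.6 with siNT in MCF10A, 14.5, 19.2 and 19.6 under hsa-miR-28-5p and 13.6, 11.1 and 12.1 under hsa-miR-708-5p. The hsa-miR-28-5p group overlapped with siNT and the hsa-miR-708-5p group did not. The log2 fold change was -0.22 ± 0.14 under hsa-miR-28-5p (adjusted p of 0.28), and the transcript fell by 0.75 ± 0.14 under hsa-miR-708-5p (adjusted p of 0.00249). In hTERT RPE-1 it had 6.91, 6.43 and 7.67 with siNT, 5.76, 3.48 and 4.31 under hsa-miR-28-5p and 4.04, 2.85 and 3.75 under hsa-miR-708-5p. It fell with both mimics, with log2 fold changes of -0.66 ± 0.18 and -0.99 ± 0.18, with adjusted p of 0.0117 and 0.000697.

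EEF1D, which encodes the second exchange subunit, had the smallest log2 fold change of the 8 in each of the 4 comparisons with siNT. In MCF10A it had 9.28, 10.2 and 9.49 with siNT, 8.02, 8.70 and 10.1 under hsa-miR-28-5p and 8.29, 7.86 and 7.76 under hsa-miR-708-5p. The first mimic group overlapped with siNT, and the second lay below it. The log2 fold change was -0.12 ± 0.10 under hsa-miR-28-5p (adjusted p of 0.436) and -0.28 ± 0.10 under hsa-miR-708-5p (adjusted p of 0.0598), and the first turned to 0.00094 with library size scaling that left out ribosomal and mitochondrial RNA. The second was called with 2 groups only, without BR7 or BR9 of hsa-miR-28-5p, each at -0.28, and without BR7 of hsa-miR-708-5p, at -0.31. For EEF1D in hTERT RPE-1 the values were 4.14, 3.93 and 3.80 with siNT, 3.07, 3.06 and 3.38 under hsa-miR-28-5p and 2.85, 2.63 and 2.83 under hsa-miR-708-5p. It fell with both mimics, with log2 fold changes of -0.32 ± 0.08 and -0.51 ± 0.08 (adjusted p of 0.00674 and 0.000222), and both calls were lost with library size scaling.

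EEF1G, the structural subunit eEF1Bγ, had 41.0, 46.2 and 42.1 with siNT in MCF10A, 28.96, 37.0 and 39.3 under hsa-miR-28-5p and 24.4, 21.1 and 21.8 under hsa-miR-708-5p. No group overlapped with another, and the values under hsa-miR-708-5p were close to 52.0% of siNT. The log2 fold change was -0.31 ± 0.14 under hsa-miR-28-5p (adjusted p of 0.141), and the transcript fell by 0.94 ± 0.14 under hsa-miR-708-5p (adjusted p of 0.00066), the most negative of the 8 in MCF10A. The hTERT RPE-1 values of EEF1G were 27.7, 27.2 and 27.2 with siNT, 18.4, 8.97 and 13.0 under hsa-miR-28-5p and 9.52, 7.57 and 8.28 under hsa-miR-708-5p. The spread of the hsa-miR-28-5p group was wide, with a coefficient of variation of 35.0% against 1.07% for siNT, and 1 of its libraries lay within the range of hsa-miR-708-5p. It fell, with log2 fold changes of -1.08 ± 0.21 and -1.70 ± 0.21 (adjusted p of 0.00172 and 4.73e-05).

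EEF2, the translocase, had 77.6, 70.2 and 57.6 with siNT in MCF10A, 43.6, 51.6 and 56.8 under hsa-miR-28-5p and 40.4, 32.3 and 38.1 under hsa-miR-708-5p. The siNT values were spread over a wide range, and the highest hsa-miR-28-5p library came within 1 unit of the lowest siNT library. The log2 fold change was -0.43 ± 0.17 under hsa-miR-28-5p (adjusted p of 0.0853), and the transcript fell by 0.89 ± 0.17 under hsa-miR-708-5p (adjusted p of 0.0024). In hTERT RPE-1 it had 56.8, 58.9 and 54.5 with siNT, 35.98, 27.9 and 35.0 under hsa-miR-28-5p and 25.6, 22.8 and 26.2 under hsa-miR-708-5p. It fell with both mimics, with log2 fold changes of -0.79 ± 0.13 and -1.19 ± 0.13, to 57.7% and 43.8% of siNT (adjusted p of 0.000559 and 1.78e-05).

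PABPC1, whose protein coats the poly(A) tail, had 140, 138 and 131 with siNT in MCF10A, 98.4, 97.6 and 93.8 under hsa-miR-28-5p and 97.0, 68.8 and 61.0 under hsa-miR-708-5p. The hsa-miR-28-5p libraries lay close together and well below siNT, whereas those under hsa-miR-708-5p were spread, with BR7 near the level of hsa-miR-28-5p. The log2 fold change under hsa-miR-28-5p was -0.50 ± 0.20 (adjusted p of 0.0896), and it was called when only the libraries of the groups compared were fitted or when hsa-miR-708-5p BR7 was left out. Under hsa-miR-708-5p the transcript fell by 0.88 ± 0.20 (adjusted p of 0.00585). The hTERT RPE-1 values of PABPC1 were 41.3, 38.6 and 45.4 with siNT, 23.3, 15.6 and 20.1 under hsa-miR-28-5p and 12.2, 9.70 and 11.9 under hsa-miR-708-5p. The 3 groups did not overlap, and with a log2 fold change of -1.89 ± 0.15 under hsa-miR-708-5p, to 26.9% of siNT (adjusted p of 3.09e-06), PABPC1 had the most negative log2 fold change of the 8. Under hsa-miR-28-5p it fell by 1.10 ± 0.15 (adjusted p of 0.000246).

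NAP1L1, the histone chaperone and the transcript with seed matches in its 3′ UTR, had 22.1, 22.3 and 22.9 with siNT in MCF10A, 14.2, 17.9 and 15.97 under hsa-miR-28-5p and 13.4, 11.8 and 11.4 under hsa-miR-708-5p. The siNT libraries differed by less than 1 unit, and no group overlapped with another. It was the only transcript of the 8 called under hsa-miR-28-5p in MCF10A, where 12.0% of all genes were called lower. Its fall was 0.49 ± 0.12 on the log2 scale (limma adjusted p of 0.012), while PABPC1 had a log2 fold change of the same size with a larger error. Any part of the seed matches in this was not tested. NAP1L1 remained called under all 17 alternative settings. Under hsa-miR-708-5p it fell by 0.88 ± 0.12 (adjusted p of 0.000275). For NAP1L1 in hTERT RPE-1 the values were 21.3, 20.6 and 26.3 with siNT, 16.3, 12.8 and 13.3 under hsa-miR-28-5p and 12.6, 9.80 and 11.9 under hsa-miR-708-5p, and it fell, with log2 fold changes of -0.69 ± 0.14 and -0.99 ± 0.14 (adjusted p of 0.0025 and 0.000129).

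TPT1 had 121, 129 and 129 with siNT in MCF10A, 90.6, 122 and 108 under hsa-miR-28-5p and 106, 91.4 and 89.4 under hsa-miR-708-5p. The hsa-miR-28-5p group overlapped with siNT by 1 library, and the hsa-miR-708-5p group did not overlap. The log2 fold changes were -0.25 ± 0.18 (adjusted p of 0.338) and -0.41 ± 0.18 (adjusted p of 0.108), and neither was called. In hTERT RPE-1 it had 52.2, 54.6 and 61.5 with siNT, 43.99, 28.1 and 29.6 under hsa-miR-28-5p and 29.7, 25.3 and 25.1 under hsa-miR-708-5p. It fell with both mimics, with log2 fold changes of -0.75 ± 0.17 and -1.07 ± 0.17 (adjusted p of 0.00445 and 0.000291), and without hsa-miR-28-5p BR1, the highest library of its group, the first log2 fold change was -0.96.

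**Figure D3:**
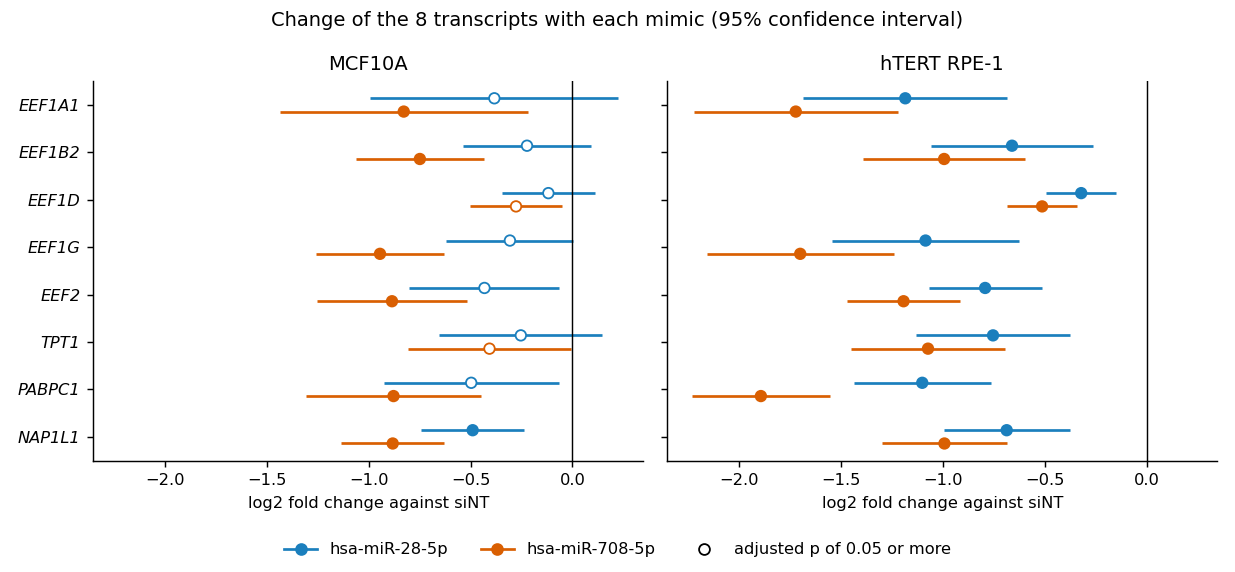
Log2 fold change against siNT (x axis) of the 8 transcripts in MCF10A and hTERT RPE-1, with 95% confidence intervals from limma as lines. Filled points have an adjusted p under 0.05. In hTERT RPE-1 all 16 points are filled and run from -0.32 to -1.89, and in MCF10A 7 of 16 are filled.

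The mimics were compared with each other at the same dose and time, in 16 comparisons of a transcript in a line. The log2 difference, hsa-miR-708-5p minus hsa-miR-28-5p, was below 0 for all 8 transcripts in each line, the medians being -0.42 for MCF10A and -0.37 for hTERT RPE-1, beside medians over all genes of -0.01 and -0.00. In MCF10A limma called 0 of 8, where 0.265% of all genes were called lower, and 4 of 8 had an unadjusted p under 0.05. The smallest adjusted p was that of EEF1G, 0.0523, with a log2 difference of -0.64 (95% confidence interval -0.95 to -0.33). EEF1G was called under 6 of the 17 alternatives, the other scalings and the fits without BR7 of either mimic (-0.77 and -0.70) among them, and EEF1B2 under 2, 1 of them without hsa-miR-28-5p BR7 (-0.67). Both were called with the replicate number as a block (limma adjusted p of 0.0231 and 0.0455). For TPT1 the interval ran from -0.55 to 0.25.

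In hTERT RPE-1 limma called 2 of 8 as lower under hsa-miR-708-5p than under hsa-miR-28-5p, where 11.4% of all genes were called lower. PABPC1 was lower by a log2 difference of -0.79 (interval -1.13 to -0.45, adjusted p of 0.00588), and this call held under all 17 alternatives. EEF2 had a log2 difference of -0.40 (interval -0.68 to -0.12, adjusted p of 0.0446), a call that was lost under 11 of the 17, without any library other than hsa-miR-28-5p BR2 among them, where the log2 difference was -0.33 to -0.44 and the adjusted p 0.051 to 0.142. With the replicate number as a block, 3 of 8 were called, EEF1G being added at an adjusted p of 0.0249. Without hsa-miR-28-5p BR2, the lowest library of its group, 5 of 8 were called, and without any other library 1 was. With library size scaling the share of lower genes among all called genes went from 53.5 to 15.2%, and the log2 difference of EEF1D turned to 0.04.

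Whether the change against siNT was of the same size in the 2 lines was put to the difference of the log2 fold changes, hTERT RPE-1 minus MCF10A. It was below 0 for all 8 transcripts with either mimic, with medians of -0.47 for hsa-miR-28-5p and -0.49 for hsa-miR-708-5p, beside medians over all genes of -0.01 and -0.02. Under hsa-miR-28-5p 1 of 8 was called, where 11.3% of all genes were called lower in hTERT RPE-1. It was EEF1G, with a difference of -0.78 ± 0.25 (SE, adjusted p of 0.0311). Leaving out hsa-miR-28-5p BR1 of hTERT RPE-1, the library rich in ribosomal RNA, added EEF1A1, EEF1B2, TPT1 and PABPC1 to EEF1G. In MCF10A, leaving out hsa-miR-28-5p BR7 added EEF1A1, and leaving out hsa-miR-708-5p BR7 added PABPC1. The EEF1G call itself was lost under 11 of 26 alternatives, 9 of which left out a library: siNT BR7 or BR9 or hsa-miR-28-5p BR8 or BR9 of MCF10A, or any siNT library or hsa-miR-28-5p BR2 or BR3 of hTERT RPE-1. The difference in these 9 was -0.52 to -0.79.

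Under hsa-miR-708-5p 3 of 8 were called, where 19.6% of all genes were called lower in hTERT RPE-1. PABPC1 differed by -1.01 ± 0.25 (adjusted p of 0.00279), EEF1G by -0.76 ± 0.25 (adjusted p of 0.0222) and TPT1 by -0.67 ± 0.25 (adjusted p of 0.0378). The PABPC1 call held under all 26 alternatives, that of EEF1G was lost under 5 and that of TPT1 under 12, library size scaling among them for both. The EEF1G call was lost without siNT BR1 (-0.75), hsa-miR-708-5p BR2 (-0.68) or BR3 (-0.74) of hTERT RPE-1. The TPT1 call was lost without BR2 or BR3 of siNT or hsa-miR-708-5p of the hTERT RPE-1 libraries, or without any siNT or hsa-miR-708-5p library of MCF10A, at -0.59 to -0.71. NAP1L1 had the smallest difference, -0.11, with an interval from -0.49 to 0.27, and it turned to 0.07 with library size scaling. With that scaling the share of lower genes among all called genes went from 49.2 to 31.5%. With the replicate number as a block, PABPC1 was added under hsa-miR-28-5p (adjusted p of 0.0408) and EEF1A1 under hsa-miR-708-5p (adjusted p of 0.0379).

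The 8 transcripts moved together from library to library. On the log2 scale, after the mean of each gene in its line was removed, each transcript had a Pearson r of 0.919 (EEF1D) to 0.992 (EEF1A1) with the mean of the other 7 over the 18 libraries. Within the lines r ran from 0.886 to 0.994 in MCF10A and from 0.934 to 0.997 in hTERT RPE-1. The libraries of a group share their treatment, and each library 1 size factor, so r is given as a description. Among 10226 other genes with a mean value of at least 100 (in single units) in both lines, the 5 with the highest r with the mean of the 8 were RPL4 (0.993), RPS4X (0.992), EIF3F (0.992), RPL15 (0.989) and RPS6 (0.989), 4 of which encode ribosomal proteins and 1 a subunit of the initiation factor eIF3.

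The mean log2 value of the 8, relative to the siNT mean of the line, was -0.53, -0.25 and -0.24 in the hsa-miR-28-5p libraries BR7, BR8 and BR9 of MCF10A and -0.57, -0.83 and -0.80 under hsa-miR-708-5p. For hTERT RPE-1 it was -0.54, -1.10 and -0.83 in BR1, BR2 and BR3 under hsa-miR-28-5p and -1.12, -1.43 and -1.23 under hsa-miR-708-5p. The siNT libraries lay between -0.05 and 0.06. The mean of the 79 cytosolic ribosomal protein transcripts, on the same scale, differed from that of the 8 by -0.18 to 0.14 in the 18 libraries. In MCF10A the 8 lay above the ribosomal proteins in all 3 libraries under hsa-miR-28-5p and below them in all 3 under hsa-miR-708-5p, by at most 0.18. The siNT libraries of that line differed by -0.08 to 0.11, a range that takes in hsa-miR-28-5p BR9 (0.0096) and hsa-miR-708-5p BR7 (-0.02). These means include RPS28. Without it the ribosomal protein mean was -0.21 in hsa-miR-28-5p BR9, so the 8, at -0.24, lay below it there. In hsa-miR-708-5p BR9 it was -0.59 without RPS28, beside -0.80 for the 8.

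**Figure D4:**
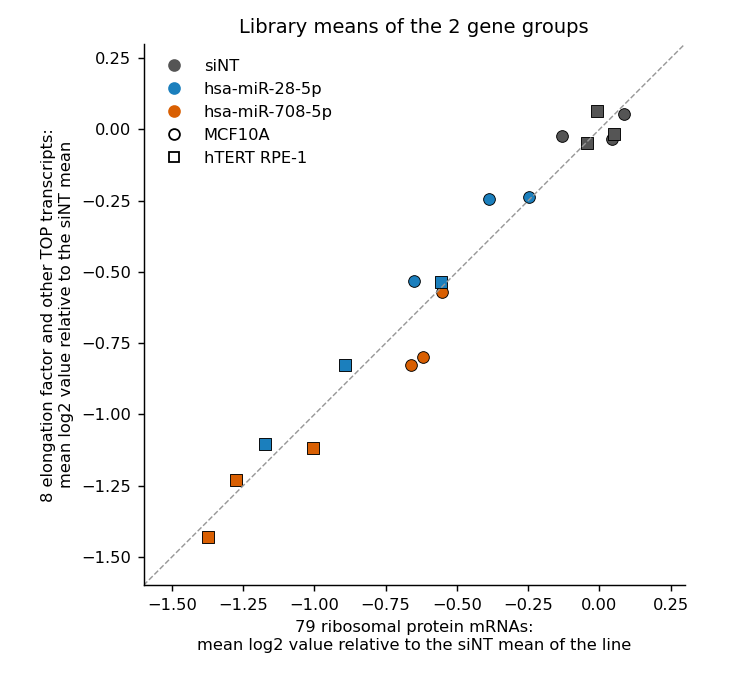
Mean log2 value relative to the siNT mean of the line, of 79 ribosomal protein transcripts (x axis) and of the 8 transcripts (y axis), for 18 libraries. Colour gives the treatment, circles are MCF10A and squares hTERT RPE-1, and the broken line marks equal means. All points lie within 0.18 of the line, with RPS28 among the 79.

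The ribosomal protein transcripts, which form the bulk of the TOP class, were called lower in 28 of 79 cases under hsa-miR-28-5p and in 62 of 79 under hsa-miR-708-5p in MCF10A, and in 76 and 79 of 79 in hTERT RPE-1. Library size scaling left 19, 44, 75 and 75. The first count was 14 without siNT BR8, 16 without siNT BR9, 18 without hsa-miR-28-5p BR8 and 14 to 38 over all fits without a library, and it was 40 with the replicate block. Their median log2 fold changes were -0.35, -0.55, -0.77 and -1.16. Among 9 other TOP transcripts, 8 were called lower with either mimic in MCF10A and 7 with either in hTERT RPE-1, the medians being -0.54, -0.91, -0.74 and -0.80. In the sentences that follow, a pair of log2 fold changes gives the value under hsa-miR-28-5p before that under hsa-miR-708-5p. EIF4B, a cofactor of the helicase eIF4A, fell to -0.88 ± 0.13 and -1.24 ± 0.13 (SE) in MCF10A and to -1.07 ± 0.12 and -1.51 ± 0.12 in hTERT RPE-1. EIF3L, a subunit of eIF3, fell to -0.61 ± 0.13 and -1.12 ± 0.13 in the first line and to -1.02 ± 0.18 and -1.41 ± 0.18 in the second. HNRNPA1, a nuclear RNA-binding protein, fell to -0.83 ± 0.14 and -1.08 ± 0.14 in MCF10A, and EIF3F, another eIF3 subunit, to -0.95 ± 0.17 and -1.39 ± 0.17 in hTERT RPE-1. VIM, which encodes vimentin, was not called in any of the 4 comparisons, its log2 fold changes being 0.11, 0.24, -0.20 and -0.29. IPO7, a nuclear import receptor, was called lower in MCF10A at -0.31 (adjusted p of 0.0498) and -0.56, and had 0.11 and 0.05 in hTERT RPE-1, where it was not called. Its line differences were 0.42 and 0.61 (adjusted p of 0.0408 and 0.00225).

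Genes that work with the elongation factors but are not known for a TOP start gave mixed values, and their counts are to be read against the shares of all genes, 12.0%, 17.3%, 23.5% and 31.2% called lower and 10.7%, 15.5%, 23.3% and 30.9% called higher, in the order of comparisons used above. Of 19 partners and modifiers of the elongation factors, 2 were called lower and 1 higher in MCF10A under hsa-miR-28-5p, and 3 lower and 1 higher under hsa-miR-708-5p. The hTERT RPE-1 table, where 18 were tested, gave 4 lower and 2 higher, then 6 lower and 3 higher, and library size scaling turned the last into 3 lower and 9 higher. These shares of the list called lower lie near those of all genes. In MCF10A the first count of lower genes was 0 without siNT BR8 or hsa-miR-28-5p BR8, 4 without hsa-miR-708-5p BR7, and 1 without any other library but hsa-miR-708-5p BR9, and the second was 1 without BR9 of siNT or hsa-miR-708-5p. The gene called higher, EIF5A2, was lost under hsa-miR-28-5p without any siNT library, any library of that mimic or hsa-miR-708-5p BR8. Under hsa-miR-708-5p it was lost without BR8 or BR9 of that mimic. DPH1, which takes part in making the diphthamide residue of eEF2, fell to -0.89 ± 0.15 and -1.39 ± 0.15 in hTERT RPE-1. EIF5A, an elongation factor that carries hypusine, fell to -0.73 ± 0.10 and -0.70 ± 0.10 there, whereas its paralog EIF5A2 rose to 0.69 ± 0.14 and 1.03 ± 0.14. In MCF10A EIF5A2 rose to 0.48 ± 0.15 and 0.55 ± 0.15. DPH5, also of the diphthamide pathway, fell to -0.46 ± 0.14 and -0.49 ± 0.14 there. The EIF5A2 call in MCF10A was lost for either mimic without hsa-miR-708-5p BR8, at 0.48 and 0.52, and the DPH5 call without siNT BR8, at -0.38 and -0.42, besides other libraries and, for DPH5, library size scaling.

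The elongation factors of mitochondria, encoded by 4 nuclear genes, were called lower in 2 and 3 of 4 in MCF10A, beside 12.0% and 17.3% of all genes. TSFM, the exchange factor, fell to -0.66 ± 0.10 and -0.60 ± 0.10 there and TUFM, which brings aminoacyl-tRNA, to -0.50 ± 0.09 and -0.69 ± 0.09. In hTERT RPE-1, 1 was called lower and 1 higher with either mimic, beside 23.5% and 31.2% of all genes lower and 23.3% and 30.9% higher. TUFM fell to -0.34 ± 0.08 and -0.38 ± 0.08 there, calls lost at -0.22 and -0.08 with library size scaling that left out ribosomal and mitochondrial RNA. GFM1, the translocase, rose to 0.30 ± 0.09 and 0.25 ± 0.09, calls lost without siNT BR1 at 0.27 and 0.22 and without siNT BR2 at 0.29 and 0.24, among other libraries.

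Of 5 termination and recycling factors, 1 and 2 were called lower in MCF10A, 2 lower under hsa-miR-28-5p in the other line, and 2 lower and 2 higher there under hsa-miR-708-5p. Over all genes, 12.0%, 17.3%, 23.5% and 31.2% were called lower in the same order, and 30.9% higher in the last. With so few genes, 1 call moves these counts, and the first was 2 with the replicate block and without hsa-miR-708-5p BR7. ETF1, which encodes the release factor eRF1, fell to -0.60 ± 0.12 and -0.74 ± 0.12 in MCF10A and to -0.70 ± 0.09 and -0.81 ± 0.09 in hTERT RPE-1. GSPT1, which encodes its GTPase partner eRF3a, fell to -0.28 ± 0.10 and -0.44 ± 0.10 in hTERT RPE-1. Both GSPT1 calls were lost with library size scaling (-0.19 and -0.12), and the first also without any single siNT library (-0.26 to -0.30), without hsa-miR-28-5p BR2 or BR3 (-0.22 and -0.26) and without hsa-miR-708-5p BR1 or BR3 (-0.28). Of the paralogs and partners of PABPC1 and NAP1L1, 9 of 11 were tested in each line. In MCF10A limma called 0 of 9 under hsa-miR-28-5p, where 2 had an unadjusted p under 0.05, and 1 lower and 1 higher under hsa-miR-708-5p. For hTERT RPE-1, 3 were called lower with either mimic, beside 23.5% and 31.2% of all genes, and the second share of the list is near that of all genes. PABPC4, a paralog of PABPC1, fell to -0.72 ± 0.15 and -1.04 ± 0.15, and PABPN1, the nuclear poly(A)-binding protein, to -0.67 ± 0.08 and -0.78 ± 0.08.

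Of 18 regulators of TOP translation, 2 were called lower and 1 higher in MCF10A under hsa-miR-28-5p, and 6 lower and 1 higher under hsa-miR-708-5p. The first share of lower genes is near the 12.0% of all genes, and under hsa-miR-708-5p 17.3% of all genes were called lower. Without single libraries the first counts were 1 to 4 lower and 0 to 1 higher, the 4 being without hsa-miR-708-5p BR7, and the 6 fell to 3 without hsa-miR-708-5p BR9. For hTERT RPE-1 there were 7 lower and 4 higher, then 6 lower and 6 higher, and with library size scaling 2 lower and 5 higher, then 4 lower and 9 higher. The 7 and 4 became 3 and 2 without siNT BR1 or BR2, and 4 and 3 without hsa-miR-28-5p BR2, and the last 6 higher became 3 without siNT BR1. The counts of 7 and 4 stand beside 23.5% and 23.3% of all genes, and those of 6 and 6 are near the 31.2% and 30.9% of all genes. EIF4EBP1, which encodes the mTOR-controlled inhibitor of eIF4E, fell to -1.18 ± 0.20 and -1.44 ± 0.20 in MCF10A. MTOR itself fell to -0.42 ± 0.11 and -0.49 ± 0.11 in MCF10A and to -0.75 ± 0.07 and -0.47 ± 0.07 in hTERT RPE-1. The first MTOR call was lost without siNT BR7 (-0.36), siNT BR9 (-0.45) or hsa-miR-28-5p BR8 (-0.38), and the last with library size scaling (-0.15). TSC1, whose protein restrains mTOR, rose to 0.39 ± 0.13 and 0.64 ± 0.13 in MCF10A, the first at an adjusted p of 0.0496 and lost without any of 6 libraries, where it was 0.33 to 0.46. In hTERT RPE-1, LARP4, an RNA-binding protein that binds poly(A), rose to 0.48 ± 0.13 and 0.84 ± 0.13, the first lost without siNT BR1 or BR2 at 0.44 and 0.41. AKT1S1, which encodes a subunit of the mTOR complex, fell to -0.42 ± 0.15 and -0.74 ± 0.15, the first lost without siNT BR1, siNT BR2 or hsa-miR-28-5p BR2 at -0.40, -0.40 and -0.23, and with library size scaling at -0.34.

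**Figure D5:**
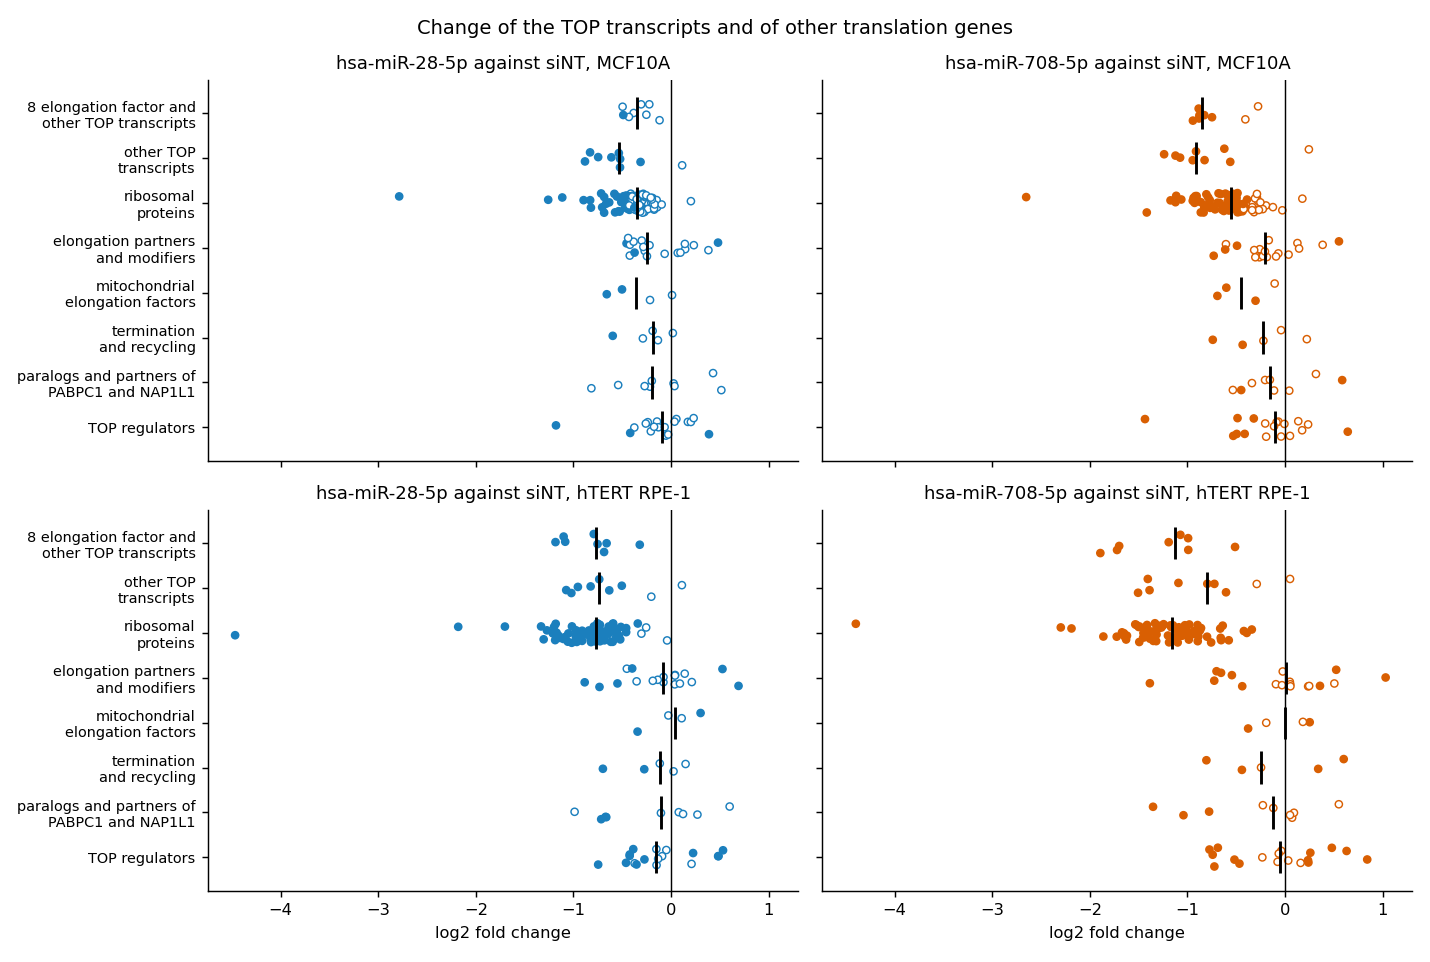
Log2 fold change (x axis) of each gene in 8 lists, 1 panel for each mimic and line. Points are genes, filled where the adjusted p is under 0.05, and the vertical strokes are list medians. The medians of the 3 TOP lists lie between -0.35 and -1.16 in every panel, and those of the other 5 between -0.45 and 0.04. These ranges overlap. Under hsa-miR-28-5p in MCF10A the median of the mitochondrial elongation factors, -0.359, lies below those of the ribosomal proteins (-0.351) and of the 8 transcripts (-0.345).

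The values of some of the 8 transcripts could take in reads of near-identical copies. RefSeq lists 50 processed or other pseudogenes named after EEF1A1, 14 after TPT1, 13 after PABPC1, 8 each after EEF1B2, EEF1D and EEF1G and 3 after NAP1L1, and none of them is listed in either table, so how their reads were assigned is not known. EEF2 has none by that naming. No other listed gene overlaps any of the 8 in the authors' coordinates.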

How the data were processed

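Libraries were made from polyA+ RNA and sequenced as paired 100 bp reads. Per the labels and the methods of the study, the authors trimmed adapters, aligned reads to hg38 with HISAT2 2.1.0, quantified RefSeq transcripts by expectation maximisation in Partek Flow and tested with DESeq2. The expression signal that the authors deposited holds estimated counts scaled by median-of-ratios size factors, with 1 table for each line. Their fold changes and p-values were not used, and the coordinates they deposited beside them were used to look for overlapping genes. Low values were whole multiples of a step, to within 0.02 reads, in 79.1 to 83.3% of cases, so whole reads were not recovered and no count test was run. A floor of 3 reads was a value of 2.35 to 4.41, for counting error only.

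The log2 of each value plus 1 was used. A gene was kept where 3 or more of the 9 libraries of its line reached a value of 10, and kept genes were tested with limma 3.58.1 (R 4.3.3), with 3 group means, a trend over the mean and Benjamini-Hochberg adjustment over all genes tested. Line differences used the fold changes and standard errors of both fits with Satterthwaite degrees of freedom, over 13339 genes. The scripts were checked on made-up data with known answers. With 3 libraries against 3, an exact permutation test of 1 transcript cannot give a p below 0.1, so none is reported. Columns of values per library were all mapped to samples. The rest was done in Python 3.11.15 (matplotlib 3.10.9, numpy 2.4.6, pandas 2.3.3). The replicates are called biological in the labels, with nothing on separate passages or days.

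Deviations from the group mean were correlated between libraries of the same number, as a check of pairing. In MCF10A the values against siNT were 0.263, 0.176 and 0.111 for hsa-miR-28-5p and 0.302, 0.115 and 0.155 for hsa-miR-708-5p. Those between the mimics of hTERT RPE-1 were 0.279, 0.198 and 0.134. Each other pair of groups had at least 1 correlation under 0.1. No values for libraries of different numbers are given beside these, so they cannot decide whether the numbers pair the libraries. The main fits used no block, and the replicate block was an alternative setting.

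The transcripts and the lists were chosen with earlier results of these data known. From each list other than the ribosomal proteins, up to 3 genes a line are named, those called with both mimics in the same direction with the largest mean change. VIM and IPO7 were added after their values were seen. The alternatives were 3 other scalings, a pseudocount of 10, no filter, fits of 2 groups, no trend, the replicate block and each library left out. For the lists outside the 8 transcripts they were applied after the data were seen.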

Additional observations from a re-analysis of the deposited data

Results flagged for a closer look

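The size of 4 changes was called different between the lines in a test of the difference itself, hTERT RPE-1 minus MCF10A. With hsa-miR-28-5p it was EEF1G, with a log2 difference of -0.78, where 11.3% of all genes were called lower in hTERT RPE-1. With hsa-miR-708-5p, where 19.6% were, the differences were -0.76 for EEF1G, -0.67 for TPT1 and -1.01 for PABPC1. Of 26 alternative settings, the EEF1G call was lost under 11 with hsa-miR-28-5p and under 5 with hsa-miR-708-5p. The TPT1 call was lost under 12, and that of PABPC1 held under all 26. In each case all 3 libraries with the mimic lay below all 3 siNT libraries in both lines. Within a single line, 22.1 to 34.9% of all genes did the same, depending on line and mimic. Such separation from siNT does not test the difference between the lines. In MCF10A, EEF1G with hsa-miR-28-5p and TPT1 with hsa-miR-708-5p were not called against siNT (limma adjusted p of 0.141 and 0.108).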

How the results depend on the processing

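The number of the 8 transcripts called against siNT was 1 with hsa-miR-28-5p in MCF10A, and 2 when only the groups compared were fitted. With the mimics compared in MCF10A it was 0, and 1 with each of the 3 other scalings and 2 with the replicate block. With the mimics compared in hTERT RPE-1 it was 2, and 1 with library size scaling, with or without ribosomal and mitochondrial RNA, and with 2 groups only. For the line difference with hsa-miR-28-5p it was 1, and 2 with upper quartile scaling and with the replicate block and 0 with 2 groups only. For that with hsa-miR-708-5p it was 3, and 1 with library size scaling of either kind. Leaving out single libraries gave 1 to 2, 5 to 7, 0 to 2, 8, 8, 1 to 5, 0 to 5 and 1 to 4 calls, in the order of the report (each mimic against siNT and the mimics against each other in MCF10A, the same in hTERT RPE-1, then the line differences). The cause was not tested. Values that changed sign were those of EEF1D with hsa-miR-28-5p in MCF10A (0.00094, library size without ribosomal and mitochondrial RNA), of EEF1D between the mimics in hTERT RPE-1 (0.0414, library size) and of NAP1L1 for the line difference with hsa-miR-708-5p (0.0658 and 0.0591, library size of either kind). The replicate block changed no call of the 8 against siNT. A fit without a library leaves 2 in its group.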
